A study of Flaveria robusta and Flaveria ramosissima and Flaveria trinervia with 18 samples.

Results

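The genes described here had low transcript abundance in leaves of the C4 species Flaveria trinervia and similar, higher abundance in the C3–C4 intermediate F. ramosissima and the C3 species F. robusta. They were chosen by their mean TPM in the 3 control-light libraries of each species. TPM, the unit of the table, divides the reads of a gene by its length and expresses the result as a part of the whole library. A gene was taken when all 3 species means were at least 1 TPM, when F. trinervia had at most 0.25 times the mean of each other species, and when the ratio of F. ramosissima to F. robusta lay above 0.5 and below 2. This rule found 144 genes among 30040 in the table, or 1.33% of the 10829 genes that reached 1 TPM in all 3 species. The table names genes only by a number and nothing available here pairs these numbers with gene names, so the members are described by their levels, and 4 of them by their numbers.

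In C3 leaves, CO2 is fixed by Rubisco in the mesophyll, and oxygenation by the same enzyme feeds photorespiration, a pathway that recovers carbon and releases CO2. In C4 leaves, mesophyll cells first fix CO2 with phosphoenolpyruvate carboxylase, and CO2 is released and concentrated around Rubisco in the bundle sheath. C3–C4 intermediates release photorespiratory CO2 in the bundle sheath. C4 leaves are known for low expression of genes of photorespiration and, in the mesophyll, of the Calvin–Benson cycle. Whether any gene described here belongs to these pathways is not known from the table.

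RNA was extracted from newly expanded mature leaves and sequenced, with 3 libraries in each of 6 groups. The groups were F. trinervia, F. ramosissima and F. robusta, each under high light of 1400 µmol m−2 s−1 and under control light of 500 µmol m−2 s−1. The design text places the light experiment in a greenhouse with added lamps, the growth description gives a lower light in a growth chamber, and the length of the treatment is not stated. Each kind of photosynthesis was held by 1 species, so a species difference and a difference of pathway cannot be told apart. How reads were mapped and rows matched across species is not given. A low transcript level in a species and reads lost in mapping or matching thus cannot be told apart. The labels do not say whether libraries of a group came from separate plants, so the p-values measure only the spread between these libraries, which may be technical. TPM keeps no read depth, so depth is unknown, and the listed TPM added up to 903641 in the lowest library and 929124 in the highest. Leaves are bulk tissue, in which fewer cells of a type and less RNA per cell cannot be told apart. Since genes carry no names here, the labelled tissue was not checked against leaf markers.

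Under control light, where the members were chosen, their levels are a description. The members had a median of the mean levels of 3.69 TPM in F. trinervia, with a range from 1.00 to 703. The median was 33.8 TPM in F. ramosissima, with a range from 4.60 to 4416, and 35.6 TPM in F. robusta, with a range from 4.32 to 6752. Together the members held 0.266% to 0.316% of listed TPM in the 3 control libraries of F. trinervia, 2.80% to 3.09% in those of F. ramosissima and 2.98% to 3.06% in those of F. robusta. A few genes carried most of this sum. The 10 most abundant members by F. robusta control mean made up 64.9% ± 1.37 of the members' TPM in F. trinervia, 66.2% ± 4.37 in F. ramosissima and 66.3% ± 5.24 in F. robusta (SD, n = 3 libraries each). At the other end, 43 members had a F. trinervia control mean under 2 TPM, close to the minimum of the rule.

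**Figure D1:**
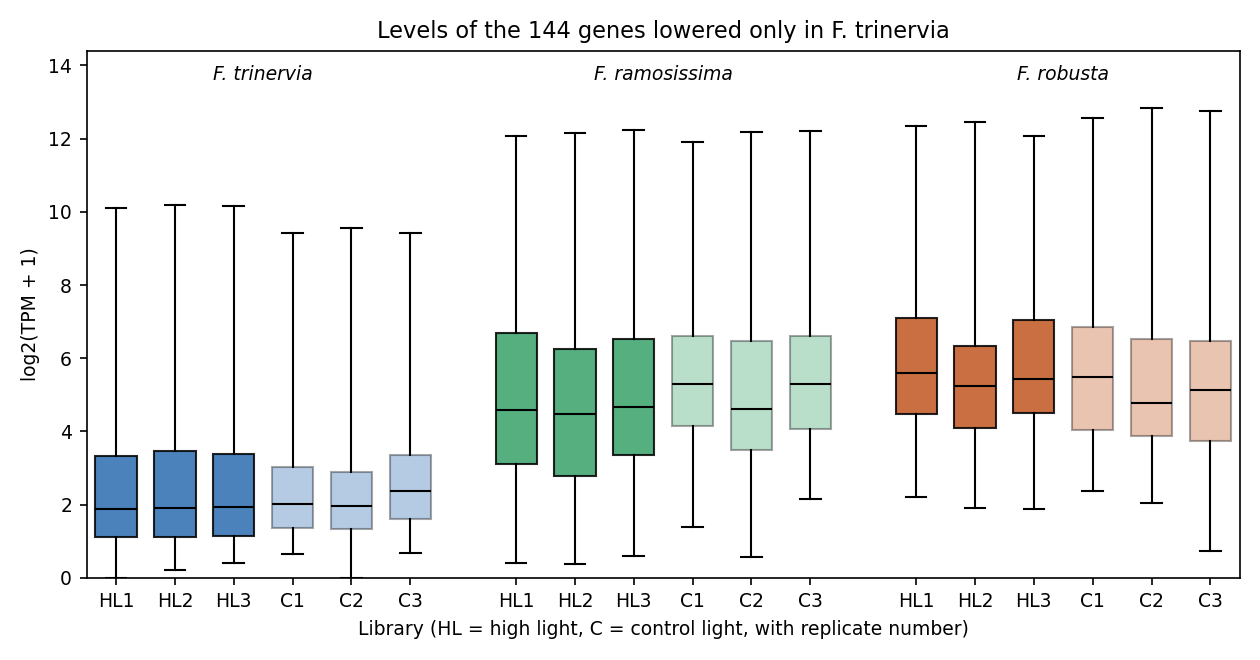
Transcript abundance of the 144 genes in each of the 18 libraries, as log2(TPM + 1). Boxes span the quartiles with the median as a line, and whiskers reach the lowest and highest gene. The median gene stood at 2.70, 2.74 and 2.83 TPM in the high-light libraries of F. trinervia, below the median gene of every library of F. ramosissima and F. robusta. The control libraries (C) chose the genes.

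How low F. trinervia stood varied widely among the members. As a percentage of the lower of the other species, the F. trinervia control mean had a median of 15.3% and ran from 0.201% to the limit of the rule. It was under 1% in 5 members and under 10% in 41, while 42 members lay between 20% and 25%. Just inside the threshold lay genes at 25%, 24.97% and 24.94% of the lower species, and just outside it genes at 25.7%, 25.8% and 25.9%. A further 630 genes met every ratio with a F. trinervia mean under 1 TPM, so genes with the lowest levels in this species are not among the members. The members closest to this minimum had 1.003 TPM in F. trinervia, and the nearest genes outside it had 0.997 and 0.987 TPM.

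Which genes met the rule depended on single libraries and on scaling. Without any 1 of the 9 control libraries the rule found from 131 to 163 genes, and 64 of the 144 members met it in each of these 9 cases. Scaling the libraries by the median ratio of their genes gave 165 genes, of which 84 were members as chosen, and quantile normalization gave 145, of which 120 were. Members that met the rule in all of these settings numbered 45. Libraries within a group also differed over the members. The median member had 23.4 TPM in control replicate 2 of F. ramosissima, against 38.5 TPM in both other control libraries of this species, and 74 members were lowest there. It had 4.13 TPM in control replicate 3 of F. trinervia, against 3.04 and 2.87 TPM in replicates 1 and 2, and 88 members were highest there. Within F. robusta the median member had 43.7, 26.3 and 33.9 TPM in control replicates 1, 2 and 3. A range of at least 4-fold between the 3 control libraries occurred in 9 members in F. trinervia, 29 in F. ramosissima and 30 in F. robusta.

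The high-light libraries took no part in choosing the members, and most members were low in F. trinervia there as well. In these libraries the median member had 2.70, 2.74 and 2.83 TPM in F. trinervia, 22.9, 21.1 and 24.2 TPM in F. ramosissima and 47.8, 36.6 and 42.3 TPM in F. robusta. The members held 0.422%, 0.447% and 0.425% of listed TPM in F. trinervia, 3.06%, 3.32% and 2.93% in F. ramosissima and 3.21%, 3.23% and 3.08% in F. robusta. All 3 libraries of F. trinervia were below all 6 of the other species in both measures.

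The species were compared under high light on the log2(TPM + 1) scale with limma, in a model of the 6 groups fitted to the 18911 genes that averaged 1 TPM or more across the libraries, with Benjamini-Hochberg adjusted p-values under 0.05 called. All 144 members were tested, because the control means that the rule requires put a gene past this filter whatever its level under high light. Against F. robusta, 132 members (91.7%) were called lower in F. trinervia and none higher, where 27.9% of all tested genes were called lower. Against F. ramosissima, 115 members (79.9%) were called lower and none higher, where 29.2% of all tested genes were called lower. At an unadjusted p under 0.05 in limma there were 134 and 116 members, again with none higher, while quantile normalization called 2 members higher than in F. ramosissima. In the same comparison 1 member was called higher with a pseudocount of 0.1, with the high-light libraries alone, and without F. ramosissima high light replicate 3, F. ramosissima control replicate 2 or F. robusta control replicate 3. In both comparisons 112 members (77.8%) were called lower, against 10.5% of all tested genes. The 3 F. trinervia libraries lay below all 6 libraries of the other species for 121 members (84.0%), against 13.5% of all tested genes, and these 121 included each of the 112.

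The size of the difference under high light also stood far from that of the table as a whole. These sizes and the shares above are not like for like with all tested genes. The rule took only genes already low in F. trinervia under control light, while the tested genes include genes of any level in the other species. The median difference of F. trinervia minus F. robusta was −3.12 on the log2 scale over the members and 0.00 over all tested genes, and 142 members were negative. The median of F. trinervia minus F. ramosissima was −2.07 over the members and 0.22 over all tested genes, with 136 negative. Scaling by median ratio moved the median of all tested genes in the comparison with F. ramosissima to −0.29 and that of the members to −2.73, with 125 members called lower. The calls over all tested genes rose as well, to 7568 lower after this scaling, against 5515 as deposited. The high-light test thus used other libraries of the same 3 species, and another C4 species was not analysed here.

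**Figure D2:**
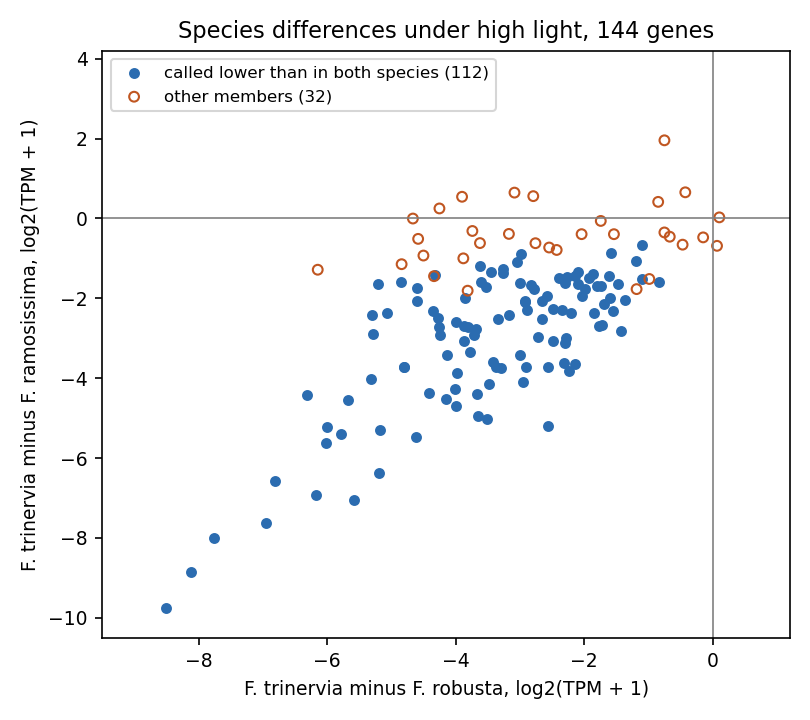
Difference in log2(TPM + 1) under high light for each of the 144 genes, F. trinervia minus F. robusta on the horizontal axis and F. trinervia minus F. ramosissima on the vertical axis. Filled points are the 112 genes called lower in F. trinervia than in both species, and open circles are the other 32, of which 20 were called lower than in F. robusta only.

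The members that were not called lower in both comparisons differed mainly in the comparison with the intermediate species. Of the other 32, 20 were called lower in F. trinervia than in F. robusta only, 3 lower than in F. ramosissima only, and 9 than in neither. Under high light, F. trinervia had a median of 7.84% of the F. robusta level and 16.1% of the F. ramosissima level. Under control light these medians were 12.5% and 13%. The distance to F. robusta was thus wider under high light and the distance to F. ramosissima narrower. The control values, however, were set by the rule. The change in these medians was not tested, and the light responses of single members are compared between species below.

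The 3 terms of the rule held to different degrees in the high-light means. F. trinervia had at most 0.25 times the mean of F. robusta in 119 members, at most 0.25 times the mean of F. ramosissima in 102, and both in 95. Its mean was under 1 TPM in 29 members, with all members at 1 TPM or more in the other species. The ratio of F. ramosissima to F. robusta lay between 0.5 and 2 in 73 members, at or below 0.5 in 59 and at or above 2 in 12. All terms together were met by 37 members. These were 25.7% of the 144 members and 46.8% of the 79 genes in the table that met the rule under high light. Among the 45 members that met the rule in every control setting above, 39 were called lower than in both species under high light and 15 met all terms.

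By the rule, all members had similar levels in F. ramosissima and F. robusta in the control libraries. The number with similar levels under high light could thus only be equal or smaller. With limma, 59 members were called lower and 22 higher in F. ramosissima than in F. robusta under high light, where 40.7% of all tested genes were called lower and 29.3% higher. The share of members called lower, 41.0%, was close to that of all tested genes, and the share called higher, 15.3%, was smaller. These shares are not like for like, since the rule bounded the control ratio of these species in the members only. The direction depended on scaling, with 52 members called higher and 32 lower after median-ratio scaling, which moved the median of all tested genes from −0.36 to 0.27. After this scaling 7791 of the 18911 tested genes were called higher and 4720 lower, so the split turned over the whole table as well. The ratio stayed between 0.5 and 2 in 50.7% of the members, against 69.9% of all 5903 genes at 1 TPM or more with a control ratio in this range, and was at or below 0.5 in 41.0% of the members, against 24.2% of these genes. This was not tested. Of the 112 members called lower in F. trinervia than in both species, 39 were called lower and 22 higher in F. ramosissima than in F. robusta, and 51 were not called between these species.

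**Figure D3:**
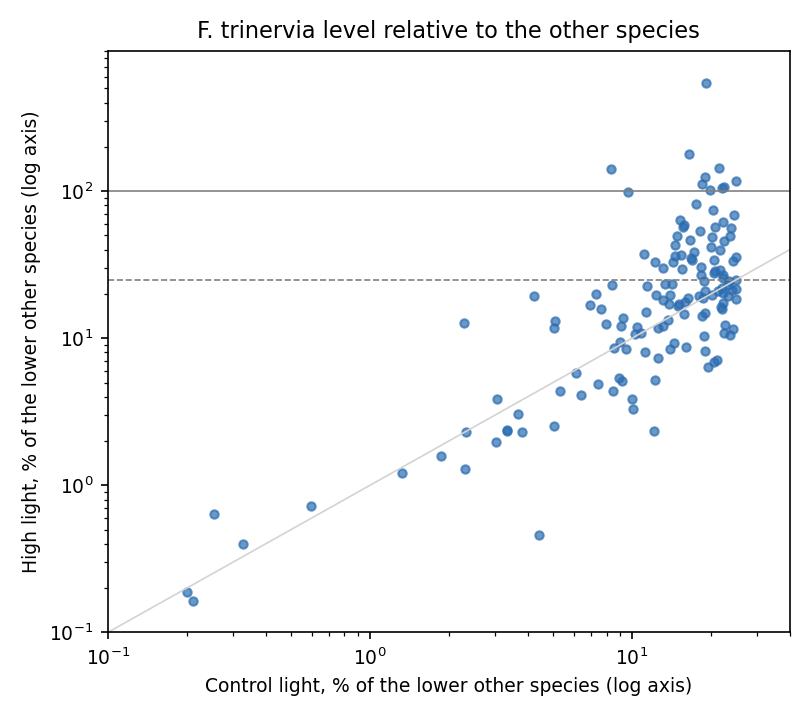
F. trinervia mean as a percentage of the lower of the means of F. ramosissima and F. robusta, under control light on the horizontal axis and under high light on the vertical axis, both logarithmic, with a point for each of the 144 genes. The dashed line marks 25%, which 95 genes did not exceed under high light, the upper line marks 100%, and the sloping line marks equal percentages.

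The relative level of F. trinervia under high light spread from 0.164% to 547% of the lower other species. It was at most 1% in 6 members and at most 10% in 40. It lay between 25% and 50% in 28 members, between 50% and 100% in 11, and at or above the lower species in 10. In 8 of these 10, F. trinervia was at or above F. ramosissima, and in 3 it was at or above F. robusta.

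Genes set apart in another single species by the same form of rule are given for comparison, without a test. Under control light 222 genes were raised at least 4-fold only in F. trinervia, 334 were lowered and 82 raised only in F. ramosissima, and 81 were lowered and 171 raised only in F. robusta. The share of each list that met its rule again under high light was 25.7% for the members, 34.7% for genes raised only in F. trinervia, 35% and 23.2% for genes lowered and raised only in F. ramosissima, and 35.8% and 38% for genes lowered and raised only in F. robusta. The lists under high light held 79, 180, 300, 57, 76 and 345 genes in the same order, of which the shared genes were 46.8%, 42.8%, 39%, 33.3%, 38.2% and 18.8%.

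Members of every abundance class were mostly low in F. trinervia under high light. By control mean in F. robusta, 16 members had under 10 TPM, 92 had 10 to 100 TPM, 30 had 100 to 1000 TPM and 6 had 1000 TPM or more. In these classes 12, 70, 25 and 5 members were called lower than in both species under high light. Of all tested genes at any level 10.5% were called so, and this share was not computed by class. The median difference of F. trinervia minus F. robusta was −2.37, −3.04, −3.86 and −4.36 from the lowest to the highest class, on a scale whose pseudocount of 1 TPM shrinks differences of genes of low level. As a percentage without pseudocount, the F. trinervia mean had medians of 9.997%, 8.07%, 5.83% and 7.61% of the F. robusta mean. The F. trinervia mean under high light was under 1 TPM in 11, 17, 1 and 0 members of these classes.

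The median SD of log2(TPM + 1) between replicates was larger over the members than over all tested genes in each of the 6 groups. It was 0.19 under high light and 0.29 under control light over the members in F. trinervia, against 0.13 at both light levels over all tested genes. In F. ramosissima it was 0.43 and 0.46 over the members, against 0.30 and 0.33 over all tested genes, and in F. robusta 0.42 and 0.45, against 0.34 and 0.24. Over the 10829 genes at 1 TPM or more in all species it was 0.42 under high light in F. robusta, about equal to that of the members. Only 2 members were listed at 0 in any library.

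The most abundant member in F. robusta had a strong signal in every library. It had 954, 652 and 803 TPM under high light and 685, 750 and 674 TPM under control light in F. trinervia. It had 4293, 4520 and 4857 TPM under high light and 3867, 4621 and 4761 TPM under control light in F. ramosissima, and 5151, 5642 and 4279 TPM under high light and 6026, 7270 and 6959 TPM under control light in F. robusta. The highest library of F. trinervia lay far below the lowest of the other species, and the F. trinervia levels at the 2 light conditions overlapped.

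The second most abundant member was more deeply lowered. It had 37.3, 34.1 and 42.1 TPM under high light and 51.8, 57.0 and 51.9 TPM under control light in F. trinervia, where all high-light libraries lay below the controls. In F. ramosissima it had 1499, 1786 and 1633 TPM under high light and 1104, 1726 and 1401 TPM under control light. In F. robusta it had 1566, 3679 and 1712 TPM under high light and 2026, 2659 and 2461 TPM under control light. The lowest library of these species, at 1104 TPM, lay far above the highest of F. trinervia.

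The third most abundant member showed how uneven replicates can be. In F. trinervia it had 1096, 1157 and 1135 TPM under high light and 373, 381 and 688 TPM under control light. In F. ramosissima it had 3541, 3797 and 2501 TPM under high light and 3406, 3234 and 828 TPM under control light, and in F. robusta 2061, 2950 and 1842 TPM under high light and 2206, 1569 and 2332 TPM under control light. Its control replicate 3 of F. ramosissima lay below all 3 high-light libraries of F. trinervia.

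Of the members called lower than in both species under high light with libraries apart, 2 were named because the smaller of their differences from the other species was largest. One of these was Gene08069. It had 2.62, 2.50 and 2.42 TPM in F. trinervia under high light, against 3316, 3721 and 2241 TPM in F. ramosissima and 1107, 1853 and 1025 TPM in F. robusta. The groups were separated by a wide gap. Its difference was −9.75 (SE 0.29) from F. ramosissima and −8.51 (SE 0.29) from F. robusta on the log2 scale. These differences chose the gene and are given with no test. Under control light it had 1.69, 5.18 and 4.10 TPM in F. trinervia, 2866, 3683 and 3233 TPM in F. ramosissima and 1726, 2037 and 1691 TPM in F. robusta. Under high light it was also called higher in F. ramosissima than in F. robusta, by 1.24 (SE 0.29, limma adjusted p = 0.00134).

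The other was Gene05128, which was listed near 0 in F. trinervia. It was listed at 0.00, 1.75 and 0.46 TPM in F. trinervia under high light, against 771, 944 and 542 TPM in F. ramosissima and 388, 538 and 419 TPM in F. robusta. Its difference was −8.85 (SE 0.43) from F. ramosissima and −8.13 (SE 0.43) from F. robusta, again with no test. These values depend on the pseudocount, since with 0.1 in place of 1 TPM they were −10.61 and −9.88, beyond the −10.18 and −8.94 of Gene08069, so the order of these members turned. Under control light it was listed at 2.85, 0.00 and 0.61 TPM in F. trinervia, 626, 1011 and 732 TPM in F. ramosissima and 552, 638 and 444 TPM in F. robusta. Levels of F. trinervia at the 2 light conditions overlapped in both Gene08069 and Gene05128, and neither was called in the light response of any species.

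**Figure D4:**
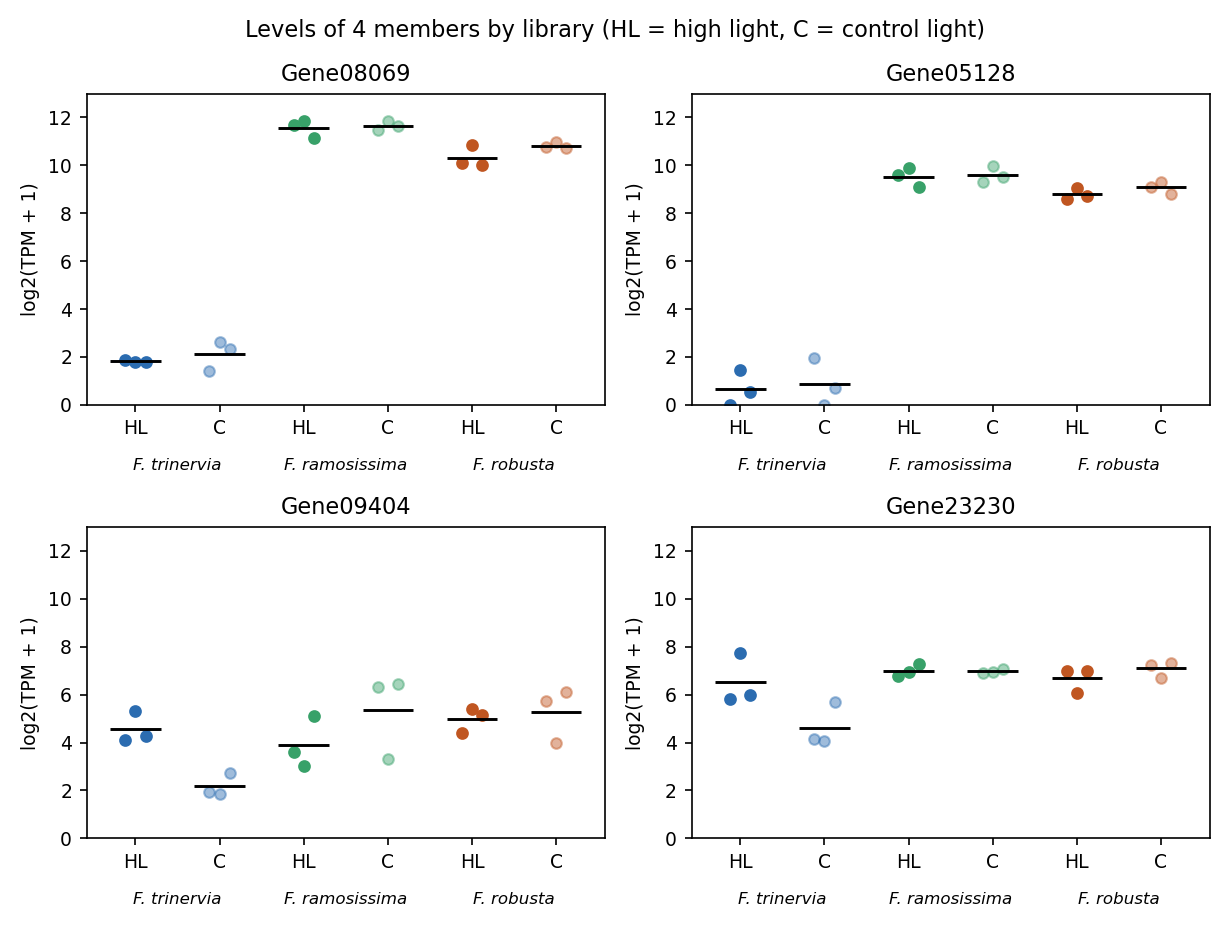
log2(TPM + 1) of 4 members in each library, with a point for each library and a line at the group mean. Gene08069 and Gene05128 lie near the floor in F. trinervia at both light levels, while Gene09404 and Gene23230 lie low in F. trinervia only under control light.

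Few members were called in the light response of any species in the model of the 6 groups. This model gives each gene a single spread over all groups, although the median SD was lower in F. trinervia than in the other species. The light responses use the control libraries that chose the members, so their counts stand beside those of all tested genes and nothing is read from them. In F. trinervia 7 members were called higher under high light (1.54% of all tested genes were) and 1 lower (5.39%). In F. ramosissima 1 member was called higher (0.788%) and 6 lower (1.55%), and in F. robusta 3 higher (1.03%) and 1 lower (1.11%). These were 19 different members, none called in more than 1 species, which left 125 with no call. The light differences of the 7 members called higher in F. trinervia lay between 0.90 and 1.91, and those of the 6 called lower in F. ramosissima between −3.53 and −1.27.

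These counts rested on single libraries and on the fit. In F. trinervia the direction of the calls rested on the fit too. It was 7 higher and 1 lower in the model of all libraries, but mainly lower with F. trinervia fitted alone. Shares of all tested genes at these settings are not given here, so nothing about the members is read from them. Without F. trinervia control replicate 1 or 2 the limma model called 0 members in the light response of F. trinervia (26 and 27 at an unadjusted p under 0.05), and without any 1 of its high-light libraries it called 2, while F. trinervia fitted alone called 44 (13 higher, 31 lower) and the model without F. robusta high light replicate 2 called 15. With F. ramosissima or F. robusta fitted alone in limma no member was called, and 38 and 26 members had an unadjusted p under 0.05. In the model of all libraries 33 members in F. trinervia, 50 in F. ramosissima and 47 in F. robusta did. Without F. ramosissima control replicate 2, the library with the lower median member, 28 members were called in F. ramosissima. Its count was 15 without high light replicate 3, 13 without F. robusta control replicate 3, and 3 or 4 without any 1 of the other F. ramosissima libraries, any F. trinervia library but high light replicate 2, or F. robusta high light replicate 3. The count of F. robusta was 12 without its high light replicate 2, 9 without its control replicate 1 and 0 without its high light replicate 3 or control replicate 2 (31 each at an unadjusted p under 0.05 in limma).

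Counts of members whose libraries did not overlap between light levels need no model. In F. trinervia the 3 high-light values exceeded each control value in 22 members and were under each of them in 47, or 15.3% and 32.6%, against 7.5% and 36.3% of all tested genes. In F. ramosissima this was so for 9 and 26 members, or 6.25% and 18.1%, against 4.66% and 9.96%. In F. robusta it was so for 16 and 16 members, 11.1% each, against 4.63% and 7.82%. The median light response over the members was −0.21 in F. trinervia, −0.26 in F. ramosissima and 0.16 in F. robusta, against −0.12, −0.10 and 0.00 over all tested genes. After median-ratio scaling these medians over the members were −0.02, −0.04 and 0.24.

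**Figure D5:**
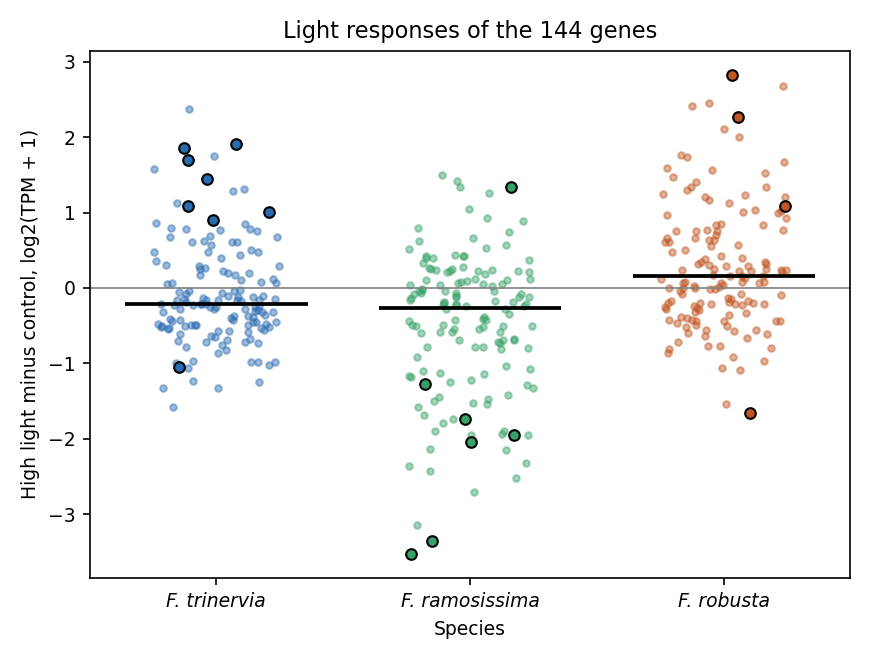
High light minus control in log2(TPM + 1) for each of the 144 genes in each species. Black bars are medians, at −0.21 in F. trinervia, −0.26 in F. ramosissima and 0.16 in F. robusta, and outlined points are the 8, 7 and 4 genes called by limma.

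The light responses were also compared between species by the test of the difference. F. trinervia minus F. robusta called 6 members, of which 2 had the higher response in F. trinervia and 4 the lower, where 3.1% of all tested genes were called. F. trinervia minus F. ramosissima called 5 members, of which 4 had the higher response in F. trinervia and 1 the lower, where 3.19% of all tested genes were called. F. ramosissima minus F. robusta called 7 members, all more negative in F. ramosissima and between −5.37 and −2.11, where 1.78% of all tested genes were called. In all, 16 members were called in at least 1 of these comparisons and 2 in more than 1. Single libraries moved these counts, and the shares of all tested genes without each library are not given here. F. trinervia minus F. robusta called 23 without F. robusta high light replicate 2, 10 without F. robusta control replicate 1 or F. trinervia control replicate 3, from 1 to 3 without any 1 of F. robusta high light replicates 1 and 3 and control replicate 2, F. trinervia high light replicates 1 and 3 and F. ramosissima control replicate 3, and 0 without F. trinervia high light replicate 2 or control replicate 1 or 2 (37 to 42 at an unadjusted p under 0.05 in limma). F. trinervia minus F. ramosissima called 13 without F. ramosissima control replicate 2, 9 without F. trinervia control replicate 3, 8 without F. robusta high light replicate 2, 1 without any other F. trinervia library, and 2 or 3 without F. ramosissima high light replicate 1 or 2 or control replicate 1 or F. robusta high light or control replicate 1. F. ramosissima minus F. robusta called 32 without F. ramosissima control replicate 2, 13 without its high light replicate 3, 23 without F. robusta high light replicate 2 and 20 without F. robusta control replicate 1.

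The 2 members named for a light response had the largest difference in F. trinervia among 19 members that reached 5 TPM under high light with all high-light libraries above the controls. Gene09404 had 16.0, 39.1 and 18.1 TPM under high light and 2.81, 2.63 and 5.73 TPM under control light in F. trinervia. The groups did not overlap, and the highest library of each was high light replicate 2 and control replicate 3. The difference was 2.38 (SE 0.77) on the log2 scale, which chose the gene and is given with no test. In F. ramosissima it had 11.0, 7.05 and 33.4 TPM under high light and 79.0, 8.89 and 85.3 TPM under control light, and in F. robusta 20.3, 40.8 and 34.6 TPM under high light and 51.6, 14.9 and 67.9 TPM under control light. Under high light the libraries of the 3 species overlapped.

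The other, Gene23230, had 56.2, 216 and 63.1 TPM under high light and 16.7, 15.5 and 50.3 TPM under control light in F. trinervia, so high light replicate 2 and control replicate 3 again stood above the others of their group. The difference was 1.91 (SE 0.48), and 1.30 without high light replicate 2, again with no test. In F. ramosissima it had 110, 121 and 155 TPM under high light and 117, 122 and 135 TPM under control light, and in F. robusta 125, 66.4 and 126 TPM under high light and 152, 103 and 161 TPM under control light. The levels of the 3 species overlapped under high light.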

How the data were processed

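The extract description in the labels gives paired-end Illumina reads of 150 bp. The authors deposited 1 table of TPM values for 18 libraries, and RSEM, an estimator of transcript abundance, is among the tools in the submitters' notes, with no version. The sources used here do not give the reference for mapping or how rows were matched across species. Column names ending in H and L were read as high light and control light. Of 30041 rows, 1 that ran into the next was left out. The rule was applied to mean TPM under control light. The members, the lists and the tests were chosen with earlier results of these data known.

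The deposited TPM values were transformed to log2(TPM + 1), which understates differences of genes of low level. Genes averaging 1 TPM or more were tested two-sided in limma 3.58.1 under R 4.3.3 (lmFit, then eBayes with its trend option). A single model held the 6 groups and left 12 residual degrees of freedom. Benjamini-Hochberg adjusted p-values over 18911 genes were called under 0.05. Groups came from the sample titles. Named genes were the 2 members whose smaller difference from the other species under high light was largest, among those called in both with libraries apart, and the 2 with the largest light difference in F. trinervia, at a high-light mean of at least 5 TPM with its libraries apart. The fit was tried on simulated data, and the rule on a few rows written by hand with known outcome. Alternatives were a pseudocount of 0.1, other filters, scaling by median ratio, quantile normalization, a block for the replicate number, smaller sets of libraries, medians in place of means, and leaving out each library. Pairs of libraries were also left out together, which was chosen after seeing the data.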

Additional observations from a re-analysis of the deposited data

Results flagged for a closer look

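The light responses of some members differed between species by the test of the difference itself in limma. These were 6 members (4.17%, against 3.1% of all tested genes) for F. trinervia minus F. robusta, 5 (3.47%, against 3.19%) for F. trinervia minus F. ramosissima and 7 (4.86%, against 1.78%) for F. ramosissima minus F. robusta. The first and second of these shares lie near those of all tested genes. The control libraries that enter these differences also chose the members.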

How the results depend on the processing

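Counts under high light held. Members called lower in F. trinervia numbered between 125 and 134 against F. robusta and between 101 and 116 against F. ramosissima when 1 library was left out, and calls between F. ramosissima and F. robusta between 68 and 83. Under every other setting these counts stayed within 1.5 times, but median-ratio scaling turned the calls of F. ramosissima against F. robusta to 52 higher and 32 lower, against 22 and 59 as deposited. The rule found from 131 to 163 genes and the members that met it under high light numbered from 34 to 41 when 1 library was left out. Counts for light responses moved, and the cause was not tested. Leaving out 1 library gave F. trinervia from 0 to 15 members, F. ramosissima from 3 to 28, F. robusta from 0 to 12, and the differences from 0 to 23 (F. trinervia minus F. robusta), from 1 to 13 (F. trinervia minus F. ramosissima) and from 5 to 32 (F. ramosissima minus F. robusta). Median-ratio scaling gave 14 members in F. trinervia and 12, 9 and 19 in these differences. Calls over all tested genes moved too, to 3.94% higher and 1.92% lower in F. trinervia, and to 2.73% and 2.68%, 2.61% and 2.88%, and 1.32% and 2.5% in the differences. Quantile normalization gave 14, 11 and 9 members in F. trinervia, F. ramosissima and F. robusta. It gave 15 members for F. trinervia minus F. robusta and 14 for F. ramosissima minus F. robusta. Over all tested genes it called 2.79% higher and 1.8% lower in F. trinervia, 2.46% and 2.17% in F. ramosissima, and 1.88% and 1.66% in F. robusta. In those differences it called 2.7% and 2.12%, and 1.51% and 2.26%. Each species alone gave 44, 0 and 0. Shares of all tested genes are not given here for each species alone, for the settings that follow or for leaving out libraries. A pseudocount of 0.1 gave 2 members in F. robusta and 3 for F. trinervia minus F. ramosissima, which was also 3 without a filter. Without F. trinervia high light replicate 2 and control replicate 3, the light responses of F. trinervia and F. ramosissima called 5 and 3 members, and F. trinervia minus F. robusta called 3.

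Same-numbered libraries showed no pairing that held in replicates 1, 2 and 3 of any pair of groups. Deviations of same-numbered libraries correlated between −0.57 and 0.64, and no pair of groups had each correlation over 0.1. Both ends of this range came from F. trinervia high light against control, with 0.64, −0.57 and −0.57 in replicates 1, 2 and 3. Pairing under other numbers was not tested, so whether libraries were paired is not known, and the main model treats them as unpaired. With the replicate number as a block, 3 members were called for F. trinervia minus F. ramosissima and 18 for F. ramosissima minus F. robusta. TPM keeps no depth, so no limit on low values was computed.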
